A study of Canis lupus familiaris with 186 samples.

Results

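The Toll-like receptors were examined in primary appendicular osteosarcomas from 186 pet dogs. The family was defined as the genes TLR1 to TLR10, and every row of the gene count table that carried 1 of these 10 names was taken. Of these, 9 had a row, giving 10 rows of 37952, because TLR9 was entered as TLR9_5 and TLR9_6, and the labels do not say what these endings mean. TLR6 was not analysed here.

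The tumors came from 2 canine trials, COTC021 (93 dogs) and COTC022 (93 dogs), and 1 RNA-seq library was deposited per dog. All dogs had osteosarcoma of a limb bone without macroscopic metastasis, and tissue was frozen before any treatment, so that both trial groups are untreated tumors of client-owned animals and neither is a control. Per-library totals ran from 6587634 to 27420867 counts (median 10797171), and the libraries fell into a pair of sets by how their columns were named, those with a doubled separator in the name (set A, 50 libraries) and the rest (set B, 136 libraries). Set A (18 from COTC021 and 32 from COTC022) was deeper than set B, with a median total of 19440456 against 9851682. What the naming stands for is not given in the sources used here, and it was followed through the results as the library-name set.

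Toll-like receptors are innate immune sensors that bind conserved microbial or damage-related molecules. TLR1, TLR2, TLR4, TLR5, TLR6 and TLR10 act at the cell surface, where they bind lipopeptides, lipopolysaccharide or flagellin, while TLR3, TLR7, TLR8 and TLR9 act in endosomes and bind nucleic acids. Most signal through the adaptor MYD88, TLR3 signals through TICAM1 (TRIF), and TLR4 uses both, which leads to NF-κB and interferon regulatory factors. Macrophages and other myeloid cells are rich in several of these receptors, and some stromal and epithelial cells also carry them.

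Levels were taken as CPM, read counts scaled so that every library has the same total, and a receptor was called detected in a library at 10 counts or more. CPM is not corrected for gene length, so it compares dogs for 1 gene and does not rank genes. Among the surface receptors, TLR2, the common partner for lipopeptide recognition (chromosome 15, 51821784 to 51824151 in the canine assembly GSD_1.0), was detected in 186 of 186 tumors, with a lowest value of 5.47, a median of 24.2 and a highest of 138 CPM. TLR4, the lipopolysaccharide receptor (chromosome 11, 71767611 to 71778394), was also detected in all 186, from 1.38 through a median of 13.7 to 159 CPM. Both were thus present in every tumor at widely differing levels.

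TLR1, a partner of TLR2 (chromosome 3, 74115278 to 74117647), was detected in 185 tumors and ran from 0.575 through a median of 7.09 to 125 CPM. TLR5, the flagellin receptor (chromosome 38, 24572699 to 24575275), was detected in 117 tumors and ran from 0 through 1.13 to 8.55 CPM. It was at 0 in 5 libraries, where 3 counts, the limit that a count of 0 allows, would be 0.175 to 0.322 CPM. TLR10, a lipopeptide-related receptor next to TLR1 (chromosome 3, 74141129 to 74143552), reached 10 counts in 21 tumors only. Its median was 0.106 CPM and its highest value 10 CPM, and it was at 0 in 55 libraries, which allows up to 0.132 to 0.417 CPM. TLR5 and TLR10 were therefore the surface members for which many tumors were near the limit of detection at this depth, and such limits cover counting error only.

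Among the endosomal receptors, TLR3, which binds double-stranded RNA (chromosome 16, 45543452 to 45571950), was detected in all 186 tumors, from 2.24 through a median of 18.1 to 88.7 CPM. TLR7 and TLR8, which bind single-stranded RNA and lie 21342 bases apart on chromosome X (9302542 to 9328038 and 9349380 to 9367898), were detected in 177 and 183 tumors. TLR7 ran from 0.0943 through 5.25 to 44.7 CPM. TLR8 ran from 0.327 through 6.84 to 88.5 CPM. The lowest counts were 1 for TLR7 and 3 for TLR8, and neither gene was at 0 in any tumor.

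TLR9, the receptor for unmethylated CpG DNA (chromosome 20, 37936949 to 37947576), was split between its rows. TLR9_5 was detected in all 186 tumors and kept to a narrow range, from 18.6 through 42.7 to 95.3 CPM. TLR9_6 was detected in 82 tumors, from 0 through 0.627 to 8.86 CPM. The annotation lists 2 transcripts for TLR9, and also 4 for TLR3, which had 1 row. Whether the TLR9 rows stand for transcripts was not tested.

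**Figure D1:**
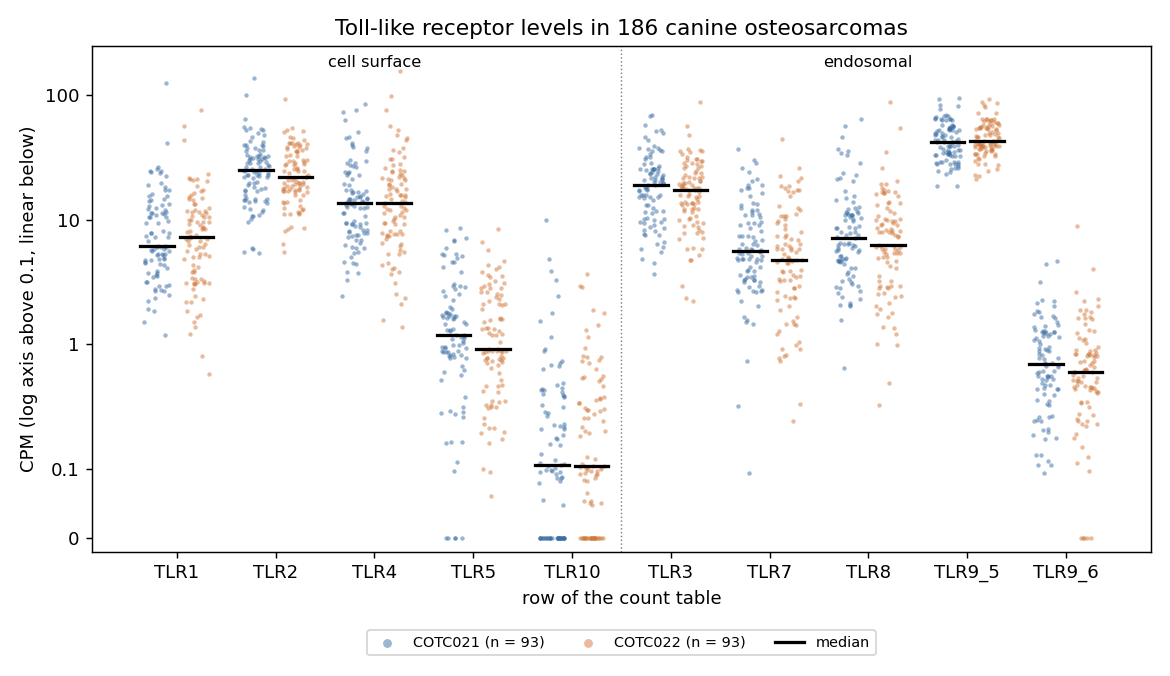
CPM of each Toll-like receptor row in every tumor, on a vertical axis that is logarithmic above 0.1 CPM and linear below, with 1 point per dog, colors for the trials and black bars for trial medians. The points of COTC021 and COTC022 overlap throughout for each row, TLR9_5 spans 18.6 to 95.3 CPM, and TLR10 has 55 tumors at 0.

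The receptors differed in how much they varied between dogs. Of the 13422 genes that passed the filter on low counts, the median SD of log2 CPM was 0.616. TLR5 had an SD of 1.33, TLR7 of 1.29, TLR8 of 1.25, and TLR1 and TLR4 of 1.16 each. TLR3 (0.887) and TLR2 (0.779) were nearer to the middle. TLR9_5, at 0.483, was the exception, since only 26.5% of genes had a smaller SD. From the tenth to the ninetieth percentile of dogs, the level rose 12.1-fold for TLR5, 10.4-fold for TLR7, 7.5-fold for TLR8 and 2.32-fold for TLR9_5. TLR5 had a median of only 15 counts, and how much counting error adds to its spread was not tested.

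The TLR1 values carry a limit from the counting step. RSEM shares reads between genes that resemble each other, and the TLR1 count was not a whole number (within 0.004) in 161 of 186 libraries. The count of its neighbor LOC119876150, which ends 18288 bases before TLR1, was not whole in 161 libraries either. What this neighbor encodes was not examined. The sum of both rows was whole (within 0.025) in 161 of the 161 libraries where TLR1 was not. TLR1 held a median of 74.6% of the sum, with a range of 31.6% to 100%. The other 9 receptor rows were whole, within 0.004, in every library. TLR1 is therefore also given below as the sum with its neighbor.

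Summed over the surface genes, the family reached a median of 48.9 CPM per tumor (9.55 to 314), and summed over the endosomal genes a median of 77 CPM (31.2 to 223). The median log2 ratio of surface to endosomal CPM was −0.669, and surface exceeded endosomal in 23 of 186 tumors. This order rested on TLR9_5: without it, the median log2 ratio was 0.652 and surface exceeded endosomal in 159 tumors. The sums are not per gene length, and the ratio differed little between COTC021 (mean −0.673 ± 0.539 SD, n = 93) and COTC022 (−0.735 ± 0.625 SD, n = 93).

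The labels place the dogs in trials only, so the first comparison asked whether receptor levels differed between COTC021 and COTC022. Mean TLR8 was 10.8 ± 11.4 CPM in COTC021 and 9.44 ± 11.4 CPM in COTC022 (SD, n = 93 each). Mean TLR7 was 8.2 ± 7.12 and 7.04 ± 7.02 CPM, and mean TLR9_5 was 45.4 ± 16.4 and 47.2 ± 15.1 CPM. In every receptor row the ranges of the trials overlapped. By limma-voom with Benjamini-Hochberg adjustment over all genes, 2 of 13422 genes (0.0149%) were called at an adjusted p under 0.05, and 1332 had an unadjusted p under 0.05. None of the 8 receptor rows that passed the filter was called, with adjusted p from 0.724 to 0.966. No receptor row had an adjusted p under 0.05 for this difference in edgeR or DESeq2 either.

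The differences (COTC022 minus COTC021, log2 ± SE) were −0.23 ± 0.18 for TLR8 (95% interval −0.59 to 0.13), −0.23 ± 0.19 for TLR7 (−0.61 to 0.14) and 0.09 ± 0.07 for TLR9_5 (−0.05 to 0.23). The other rows lay between −0.13 for TLR3 and −0.04 for TLR4. Within library-name sets the values moved apart. In set A TLR7 stood at 0.41 ± 0.38, TLR4 at 0.49 ± 0.37 and TLR9_5 at 0.39 ± 0.12, while in set B TLR7 stood at −0.60 ± 0.24, TLR4 at −0.28 ± 0.20 and TLR9_5 at 0.01 ± 0.09. No receptor was called within either set. The trial-by-set interaction, a test added after these signs were seen, called 0 genes (0%) by limma, with 1466 genes at an unadjusted p under 0.05, and TLR7 had the largest receptor value (1.01 ± 0.42, adjusted p = 0.398).

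**Figure D2:**
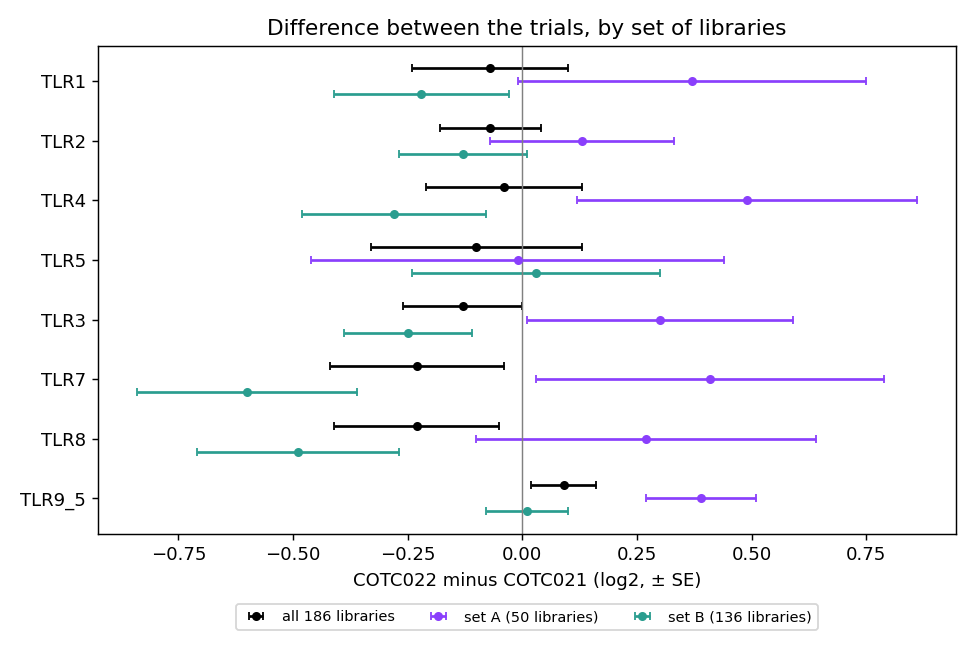
Difference between trials in log2 units (horizontal axis, points with bars of ± 1 SE) for the 8 receptor rows that passed the filter, in all 186 libraries, in set A and in set B. TLR7 lies at −0.23 in all libraries, at 0.41 in set A and at −0.60 in set B, and no row was called in any of the 3.

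Between the library-name sets, 573 genes (4.27%) were called by limma and no receptor was. TLR5 came nearest, at −0.73 ± 0.25 log2 in set A against set B (adjusted p = 0.0817). TLR1 stood at −0.32 ± 0.19 and TLR3 at −0.31 ± 0.14 (adjusted p of 0.351 and 0.208 by limma). TLR5 values are given with this in view.

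The study grouped these dogs by a gene signature called GS-1, which it took from earlier work on canine osteosarcoma. The clusters, disease-free interval and overall survival were not analysed here. GS-1 was used as a continuous score instead, the mean z value of 26 of its genes, in units of 1 SD across dogs. TLR7, itself a GS-1 gene, was left out of the score. Slopes were fitted over all genes with the trial as covariate and are log2 changes per SD of the score. In bulk tumor RNA, more cells of a type and more RNA per cell cannot be told apart.

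All 8 tested receptor rows rose with the GS-1 score, where 22.7% of the 13422 genes rose and 49.4% were called in either direction by limma. TLR8 had a slope of 1.08 ± 0.04 (adjusted p = 2.09e-62), a 2.11-fold change per SD. TLR1 followed at 1.01 ± 0.04, TLR4 at 1.00 ± 0.04 and TLR7 at 0.92 ± 0.05, each with an adjusted p of 1.06e-37 or lower by limma. TLR3 (0.44 ± 0.06), TLR2 (0.40 ± 0.05), TLR5 (0.38 ± 0.10) and TLR9_5 (0.19 ± 0.03) had smaller slopes. The rows thus fell into 4 with slopes near 1 and 4 below 0.5. The sum of TLR1 and its neighbor had a slope of 0.97 ± 0.04. In a fit with no filter, in which 14.7% of 30041 genes rose, TLR10 had a slope of 1.05 ± 0.08 and TLR9_6 of 0.50 ± 0.08.

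TLR5 was the least steady. Its slope was 0.54 ± 0.16 in COTC021 (adjusted p = 0.00743 by limma) and 0.27 ± 0.13 in COTC022 (adjusted p = 0.0816 by limma), and 0.29 ± 0.19 in set A (adjusted p = 0.275 by limma). The slopes of TLR8 were 1.07 and 1.08 in the trials. No receptor's slope differed between trials or between library-name sets by limma's interaction term, which called 0 genes (0%, with 395 at an unadjusted p under 0.05) and 3 genes (0.0224%).

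The receptors were then set against scores for cell types and for the interferon response, each built from a list of marker genes. The macrophage score held 10 genes (among them CD68, CD163 and CSF1R), the T cell score 6, the neutrophil score 6, the osteoblast score 8 and the interferon score 17. The B cell score rested on CD22, BANK1 and JCHAIN, since only 3 of 12 markers in the table passed the filter. Macrophage markers were at 10 counts or more in nearly all tumors (CD68 and CD163 in 186, ADGRE1 in 173). The genes of the T cell score reached that level in 121 (CD3G) to 184 (CD2) tumors. CD8A, which did not pass the filter and is not in the score, reached it in 50.

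On the macrophage score, all 8 receptor rows rose (21.2% of genes rose), with TLR8 at 1.20 ± 0.04, TLR4 at 1.06 ± 0.05, TLR1 at 1.05 ± 0.05 and TLR7 at 1.02 ± 0.06. TLR2 (0.45), TLR3 (0.43) and TLR5 (0.43) again had smaller slopes, and TLR9_5 stood at 0.16. In set A alone 6 rows rose (11.3% of genes), without TLR5 (0.31, adjusted p = 0.315 by limma) and TLR9_5 (0.14, adjusted p = 0.0574 by limma).

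On the B cell score all 8 rose (24.5% of genes), from 0.13 for TLR9_5 to 0.72 for TLR4, and TLR9_5 was not called in set A alone (0.09, 13.3% of genes rose) or in COTC022 alone (0.07, 16% of genes rose). On the T cell score 7 rose (17.7% of genes), and TLR5 was not called (0.17 ± 0.11, adjusted p = 0.22 by limma). On the neutrophil score 6 rose (16.8% of genes), with TLR4 at 0.71 and TLR8 at 0.70, and TLR3 (0.13) and TLR5 (0.19) were not called. In set A alone 4 rose (5.49% of genes), without TLR7 (0.44, adjusted p = 0.0924 by limma) and TLR9_5 (0.07).

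The interferon score gave another order. Of the 8 rows, 7 rose (12.8% of genes rose), with TLR7 at 0.60 ± 0.08 and TLR3 at 0.53 ± 0.05, the latter with the lowest adjusted p of the family (6.14e-17 by limma). TLR8 stood at 0.38 ± 0.09 and TLR4 at 0.33 ± 0.08, and TLR9_5 was not called (0.08 ± 0.04). In COTC021 alone 8 rows rose (8.66% of genes), in COTC022 alone 4 (4.57%), in set A 2 (5.48%) and in set B 6 (6.71%), and these differences were not tested. On the osteoblast score, 7 rows fell (20.3% of genes fell). TLR4 fell by 0.56 and TLR8 by 0.53 per SD on the log2 scale, and TLR3 was not called (−0.10 ± 0.07). The fall of TLR5 (−0.26 ± 0.11) was not called in COTC022 alone (−0.03) or in either library-name set, and that of TLR7 (−0.23 ± 0.09) was called in neither trial and neither set.

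These scores were correlated across dogs: GS-1 with the macrophage score at r = 0.94 (rho = 0.94), with the T cell score at r = 0.84 (rho = 0.78) and with the interferon score at r = 0.50 (rho = 0.48), each with a permutation p of 1e-05, the smallest that 100000 resamples can give. A joint fit therefore held all 6 cell and interferon scores at once. In it the macrophage slope was called for 5 of 8 rows (15.4% of genes were called), with TLR8 at 1.17 ± 0.06, TLR7 at 0.97 ± 0.09, TLR4 at 0.95 ± 0.06, TLR1 at 0.81 ± 0.08 and TLR2 at 0.43 ± 0.07. TLR3 (0.13 ± 0.08), TLR5 (0.35 ± 0.17) and TLR9_5 (0.04 ± 0.05) were not called.

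In the same joint fit, the interferon slope was called for 3 rows (13.4% of genes). TLR3 rose at 0.42 ± 0.06 (adjusted p = 1.45e-09 by limma), while TLR4 (−0.16 ± 0.04) and TLR8 (−0.14 ± 0.04) fell, opposite in sign to their own fits. The B cell slope was called for 3 rows (28.1% of genes), namely TLR5 (0.64 ± 0.14), TLR3 (0.34 ± 0.07) and TLR7 (0.24 ± 0.07). The T cell slope was called for TLR5 (−0.61 ± 0.15) and TLR2 (−0.19 ± 0.07), where 19.6% of genes were called. The neutrophil slope was called for TLR4 (0.23) and TLR8 (0.13), where 10.2% of genes were called. The osteoblast slope was called for TLR4, TLR2, TLR8 and TLR9_5, all between −0.21 and −0.11 (27.2% of genes were called). Because the scores share much of their variation, a slope in the joint fit is the part of a receptor's level that goes with 1 score at fixed values of the others.

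**Figure D3:**
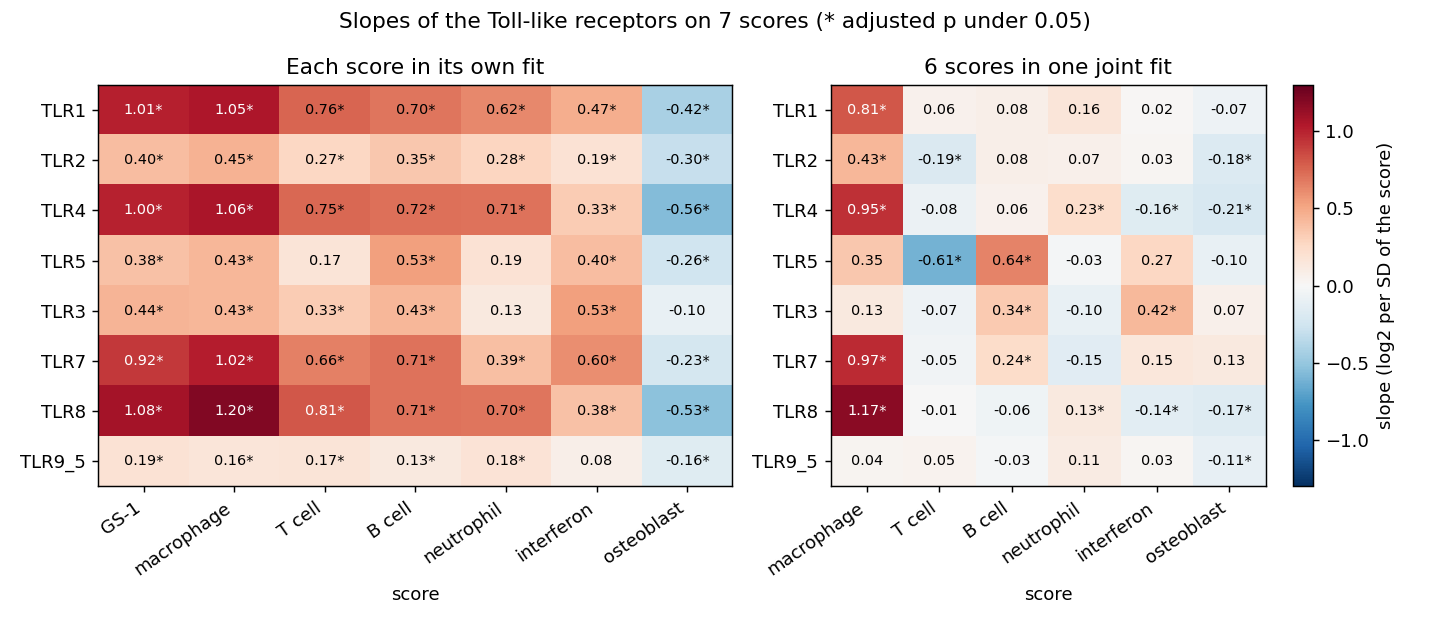
Slopes in log2 units per SD of each score for the 8 receptor rows, with each score fitted alone (left) and with 6 scores in a joint fit (right); red is positive, blue is negative and an asterisk marks an adjusted p under 0.05 by limma. The macrophage column keeps TLR8 at 1.20 and 1.17, while TLR3 goes from 0.43 to 0.13 there and from 0.53 to 0.42 in the interferon column.

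**Figure D4:**
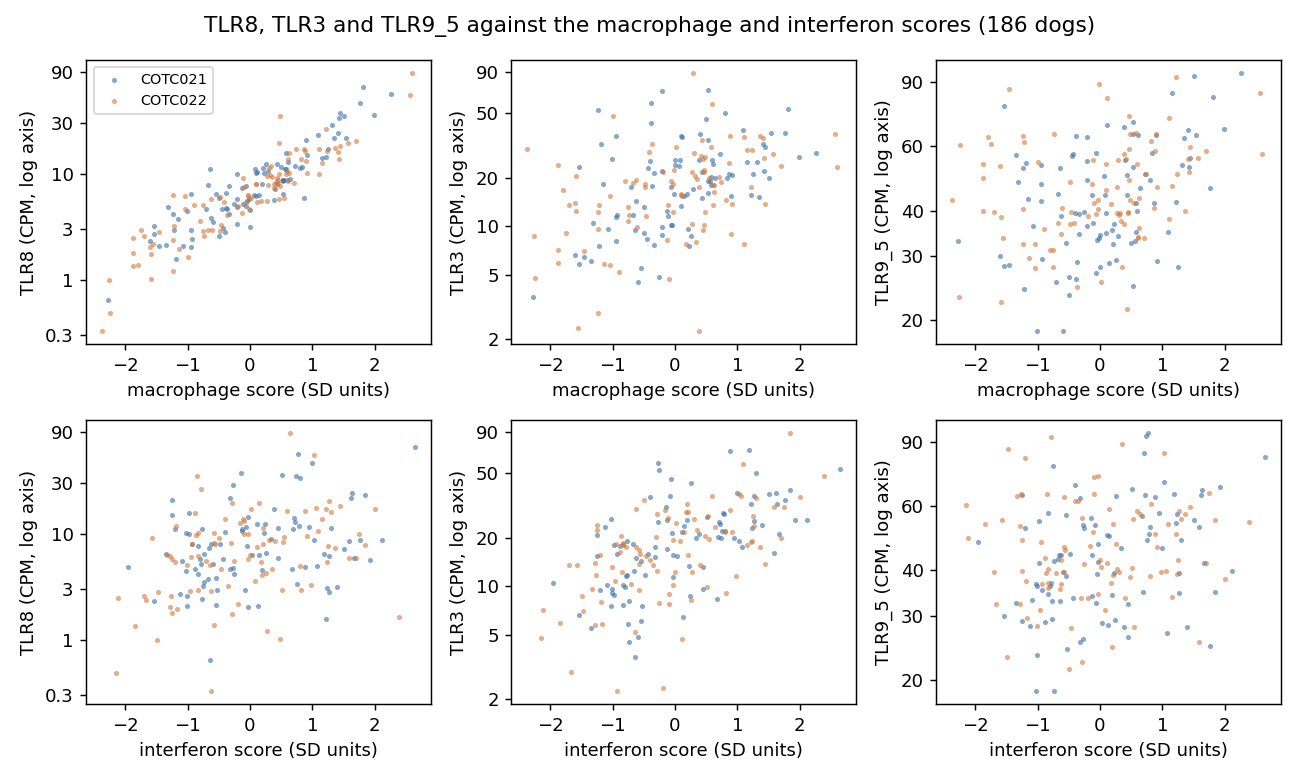
TLR8, TLR3 and TLR9_5 in CPM (vertical log axes) against the macrophage score (upper row) and the interferon score (lower row) in SD units, with 1 point per dog and colors for the trials. TLR8 follows the macrophage score closely over its range of 0.327 to 88.5 CPM, TLR3 spreads more widely against it, and TLR9_5 changes little with either score.

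Across dogs, the receptors were positively correlated with each other. Of 45 pairs of rows, 44 had an adjusted permutation p under 0.05 for Pearson's r, and all of these were positive. The median r over the 45 was 0.36. What share of pairs of other genes would be called was not tested, so the count is not particular to this family. The closest pair was TLR4 and TLR8 (r = 0.86, rho = 0.86, n = 186), followed by TLR1 and TLR8 (r = 0.81, rho = 0.77), TLR1 and TLR4 (r = 0.78, rho = 0.77) and TLR7 and TLR8 (r = 0.76, rho = 0.74). Each of these had a permutation p of 1e-05 for r and rho (adjusted 1.5e-05 and 1.67e-05). For TLR4 and TLR8, r was 0.87 in COTC021, 0.85 in COTC022, 0.88 in set A and 0.85 in set B.

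By r, TLR3 stood closest to TLR7 (r = 0.59, rho = 0.60) and TLR10 (r = 0.52, rho = 0.45), a row that did not pass the filter. TLR1 (r = 0.47, rho = 0.47), TLR5 (r = 0.46, rho = 0.46) and TLR2 (r = 0.45, rho = 0.45) came next. TLR8 (r = 0.36, rho = 0.36) was lower than every other row except TLR9_5. TLR3 and TLR9_5 were the pair not called (r = 0.12, permutation p = 0.103), and their r was 0.27 in COTC021 and −0.01 in COTC022. TLR9_5 and TLR9_6, rows of the same gene, had an r of only 0.28 (rho = 0.26).

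Given the GS-1 score, 17 of the 45 pairs stayed under an adjusted permutation p of 0.05, and the median r was 0.09. The share among pairs of other genes was not tested here either. TLR4 with TLR8 (0.39), TLR3 with TLR7 (0.38) and TLR3 with TLR5 (0.38) were the largest, each with an adjusted permutation p of 0.000225. TLR1 with TLR4 went from 0.78 to 0.06. Of the 45 pairs, 11 went from positive to negative, and 2 of these were called, TLR8 with TLR9_6 (−0.26) and TLR8 with TLR3 (−0.17, adjusted permutation p = 0.0482). TLR3 also kept a correlation with TLR9_6 (0.31) and with TLR10 (0.30). Neither TLR9_6 (median of 8 counts) nor TLR10 (median of 2 counts) passed the filter. Library depth was not held fixed in these values.

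**Figure D5:**
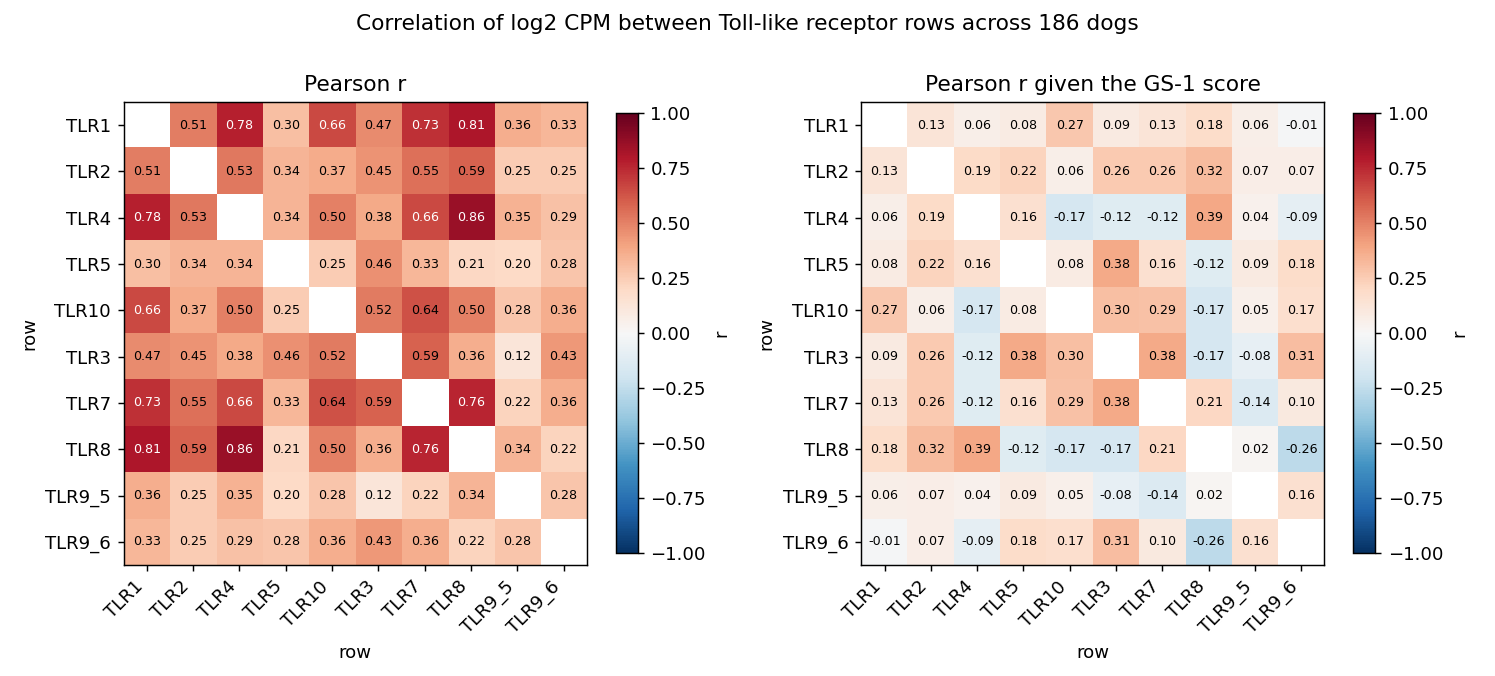
Pearson r of log2 CPM between receptor rows over 186 dogs (left) and the same given the GS-1 score (right), with red for positive and blue for negative values. The block of TLR1, TLR4, TLR7 and TLR8, at 0.66 to 0.86 on the left, keeps 0.39 for TLR4 with TLR8 on the right, and the row of TLR9_5 is pale in both.

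For each receptor, the genes with the most similar pattern were taken as those with the highest Spearman rho over the 186 dogs among 12260 named genes. These were picked as the largest of many values, so no p is given. TLR8 was most like BPI (0.91), a lipopolysaccharide-binding protein, IGSF6 (0.90) and CD163 (0.89), the macrophage hemoglobin scavenger receptor. TLR4 was most like CD53 (0.89), a leukocyte tetraspanin, IGSF6 (0.87) and AIF1 (0.87). TLR1 had CD53 (0.87), the complement receptor C3AR1 (0.86) and EVI2B (0.86). TLR7 had DOCK2 (0.84), a leukocyte migration gene, ADA2 (0.82) and C3AR1 (0.81). CD53 and C3AR1 are among the genes of the GS-1 score, and CD163 and AIF1 among those of the macrophage score.

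TLR3 had a different company, namely SP100 (0.79), TRIM34 (0.77) and PARP12 (0.77), which are known as interferon-inducible genes. TLR2 was most like ASAH1 (0.66), the lysosomal acid ceramidase, TMEM86A (0.61) and CYP4V2 (0.60). TLR10 was most like JAML (0.66), PTPRO (0.65) and FMNL1 (0.65). TLR5 reached 0.57 with SH3D19, 0.56 with XG and 0.55 with FAM214B, none of them a leukocyte marker of the lists used here.

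The genes nearest to TLR9_5 were PPM1M (0.64), TREX1 (0.60), a DNA exonuclease, and OAZ1 (0.60), and all 3 lie on chromosome 20, as TLR9 does. PPM1M ends 8844 bases before TLR9. Of the 100 genes with the highest rho to TLR9_5, 30 were on chromosome 20, which held 5.2% of the genes searched. This count was made after the nearest genes were seen. For the other receptors, the same count on their own chromosome ran from 0 of 100 for TLR4 (2.7% of genes searched) to 9 for TLR3 (1.93%), with 13 for TLR9_6. It also stood above the share for TLR5 (4, 0.93%), TLR2 (6, 2.57%), TLR7 (6, 3.32%) and TLR8 (7, 3.32%). TLR1 and TLR10, with 1 each (2.69%), stood below it, as did TLR4. Whether DNA copy number goes with this was not tested.

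The wider pathway was followed along the GS-1 score, over lists of pathway genes, none of which is part of the score. Of 12 coreceptor and trafficking genes, 10 passed the filter, of which 6 rose and 1 fell, where 22.7% of all genes rose and 49.4% were called in either direction (median slope 0.47, against −0.02 over all genes). LY86 (1.28) and CD180 (1.19), which form a TLR4-related complex, had the largest slopes, followed by LY96 (0.64), the MD-2 partner of TLR4, CD14 (0.57), its lipopolysaccharide coreceptor, and UNC93B1 (0.49), which carries nucleic acid receptors to endosomes. HSP90B1 (−0.21), the chaperone of Toll-like receptors, fell.

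Of 22 adaptor and kinase genes, all passed the filter, 15 rose and 2 fell (median 0.14), where 22.7% of all genes rose and 49.4% were called in either direction. PIK3AP1 (0.90), TICAM2 (0.54), the TLR4 adaptor also called TRAM, and MYD88 (0.26) rose. TICAM1, the adaptor of TLR3, had a slope of 0.00 ± 0.04 and was not called. IRAK1 (−0.12) and TAB2 (−0.07) fell, and SARM1 (−0.12 ± 0.09), a negative regulator, was not called.

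Of 12 transcription factor genes, 10 rose and none fell by limma (median 0.20, 2 not called), against the same 22.7% and 49.4% of all genes. IRF8 (1.33), a myeloid lineage factor, IRF7 (1.04), IRF1 (0.73) and IRF5 (0.72) had the largest slopes, while the NF-κB genes NFKB1 (0.20) and RELA (0.12) had small ones and JUN (−0.10 ± 0.06) was not called. Of 16 genes that receptor signaling can induce, 5 passed the filter, which 13422 of all 37952 rows passed. CXCL8 (0.90), TNFAIP3 (0.55), SOCS3 (0.36) and NFKBIA (0.34) rose, against the same 22.7% and 49.4% of all genes. PTGS2 (−0.30 ± 0.18) was not called. TNF reached 10 counts in 4 tumors, IL1B in 14, IL6 in 87, IL12A in 101 and IFNB1 in none of 186, and slopes of the genes that did not pass the filter are not given.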

How the data were processed

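RNA from frozen tumor tissue was made into stranded mRNA libraries and sequenced in pairs. The authors trimmed reads with Cutadapt, aligned them with STAR 2.7.0f and estimated counts per gene with RSEM 1.3.1 on CanFam4 (GSD_1.0). The deposited values are these expected counts, not normalized (3.07% were not whole), and were rounded. Of 198 columns, 12 matched no sample and were not used. Replicate numbers are names only.

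Genes were kept by filterByExpr (minimum count 10), scaled by TMM and fitted with limma-voom (limma 3.58.1, edgeR 4.0.16, R 4.3.3), with Benjamini-Hochberg adjustment over 13422 genes. Scripts were tested on simulated data. Alternatives were edgeR's quasi-likelihood test, DESeq2 1.42.0, other scalings, no filter and subsets of libraries. Correlations used log2 CPM (prior count 2) and permutation tests, two-sided, of 100000 resamples. Positions are from RefSeq (UU_Cfam_GSD_1.0). No transcript lengths or sequences were used.

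Members and lists were chosen with earlier results of these data known. Named genes were the receptors, the pathway lists, with values for the largest and smallest GS-1 slopes, and the 3 genes with the highest rho to each receptor; other list members named were chosen after their values were seen. LBP, FOLR2, CR2 and IFIT1 were not analysed here.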

Additional observations from a re-analysis of the deposited data

How the results depend on the processing

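The number of genes called between trials depended on the method: 2 by limma, 129 by edgeR's quasi-likelihood test, 91 by DESeq2, 0 with no filter, 0 with library totals only, 4 with upper-quartile scaling, 0 in set A and 8 in set B; no receptor was among them, and the cause was not tested. Between the library-name sets, 573 genes became 13135 with no filter, 146 in COTC021 and 85 in COTC022, and TLR5 was called with no filter (−0.69, adjusted p = 0.0199 by limma). Each subset of libraries gave fewer genes called per score than all libraries together, and the cause of the differences between subsets was not tested. Set A gave 3309 for GS-1, 2524 for macrophage, 2656 for T cell and 3194 for B cell. It also gave 1058 for neutrophil, 1891 for osteoblast and 1228 for interferon. Set B, with more libraries, gave 2540 for T cell and 1484 for interferon. COTC021 gave 3600 for GS-1, 3314 for macrophage and 2122 for T cell. It also gave 1645 for neutrophil, 3272 for osteoblast and 2038 for interferon. COTC022 gave 4086 for B cell, 2868 for neutrophil, 2849 for osteoblast and 943 for interferon. With no filter the counts were 14220 for B cell, 9970 for neutrophil and 12236 for osteoblast. The joint fit called 2065 genes for macrophage, 2632 for T cell, 3771 for B cell, 1369 for neutrophil and 1801 for interferon.

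Signs of uncalled trial differences changed in set A (TLR1 0.37, TLR2 0.13, TLR3 0.30, TLR4 0.49, TLR7 0.41, TLR8 0.27), with the GS-1 score as covariate (TLR1 0.01, TLR4 0.08), for TLR4 by edgeR (0.09) and DESeq2 (0.08), and for TLR5 with the set as covariate (0.02) and in set B (0.03). For the library-name sets they changed in COTC022 (TLR2 0.01, TLR4 0.25, TLR8 0.28), in COTC021 (TLR7 −0.50) and by edgeR (TLR4 0.07, TLR8 0.08). In the joint fit, slopes changed sign on the T cell score (TLR2 −0.19, TLR3 −0.07, TLR4 −0.08, TLR5 −0.61, TLR7 −0.05, TLR8 −0.01), the B cell score (TLR8 −0.06, TLR9_5 −0.03), the neutrophil score (TLR3 −0.10, TLR5 −0.03, TLR7 −0.15), the osteoblast score (TLR3 0.07, TLR7 0.13) and the interferon score (TLR4 −0.16, TLR8 −0.14). Outside the joint fit, only uncalled slopes did so, TLR5 on the neutrophil score in set A (−0.02) and TLR3 on the osteoblast score in COTC022 (0.05), while 364 receptor slopes kept direction and side of the threshold, 26 lost the call and 1 gained it. On the GS-1 score TLR5 alone lost it.

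At 5 counts TLR10 was detected in 51 tumors and TLR9_6 in 136. The mean log2 ratio of surface to endosomal CPM went from −0.704 to 0.601 without TLR9_5, an alternative added after the data were seen, as were the sum of TLR1 with its neighbor, the fits of the library-name sets and of scores other than GS-1 with no filter, a B cell score from all markers and the trial-by-set interaction. Of the pairs, 17 were called given the GS-1 score; 11 of the 45 turned negative, among them TLR3 with TLR8 (−0.17) and with TLR9_5 (−0.08), and TLR3 with TLR9_5 was called with library totals only (r = 0.20, adjusted permutation p = 0.00668). Counts per kilobase were not run for lack of transcript lengths. No paired analysis was possible because replicate numbers only follow the order of the samples. Depth limits TLR10, TLR9_6 and TLR5.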

Other observations

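The highest values of several receptors came from the same tumor. The library COTC022 replicate 43 was highest of 186 for TLR4 (159 CPM), TLR7 (44.7 CPM) and TLR8 (88.5 CPM), and its GS-1 score ranked 5 of 186. The tumor highest for TLR2 (138 CPM, COTC021 replicate 6) had a GS-1 score that ranked 163, and the tumor highest for TLR5 (8.55 CPM) ranked 92. The tumor highest for TLR9_6 (8.86 CPM) had the highest GS-1 score of all. The next TLR10 value after the highest of 10 CPM was 4.83 CPM.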
